A study of Homo sapiens with 48 samples.

Results

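The 8 basic leucine zipper (bZIP) transcription factors that carry the stress response were followed by name: ATF4, ATF5, DDIT3 (which encodes CHOP), ATF3, CEBPB, CEBPG, XBP1 and ATF6. All 8 were found by gene symbol in the table of ribosome-protected fragments (RPFs) and in the table of total RNA, among the 10836 genes that both tables hold. The libraries came from SW480 cells, a human colorectal cancer (CRC) line, in 3 versions with an shRNA that doxycycline (DOX) switches on: shCTRL as the control, shEIF2B1 for the α subunit of eIF2B, and shEIF2B4 for its δ subunit. eIF2B is the exchange factor that reloads eIF2 with GTP. Each version was a selected pool of lentivirally transduced cells, not a clone, and was kept for 5 days with 1 µg/ml DOX (+DOX) or with DMSO (-DOX). With 4 replicates in separate weeks this gave 6 groups, 24 lysates and 48 libraries, since each lysate was sequenced as RPFs and as total cytoplasmic RNA. The values are regularized log2 values, a scale on which 1 unit is a doubling and on which genes with few reads are drawn towards their mean, so that differences of such genes are understated.

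bZIP factors bind DNA as dimers held together by a leucine zipper, and the stress members of the family pair with each other. When less active eIF2 is available, most messages are initiated less often, while a few with short reading frames in their leaders, among them ATF4, ATF5 and DDIT3, are known to be translated better; ATF4 then raises the transcription of DDIT3, ATF3, CEBPB and other stress genes. XBP1 and ATF6 belong to the endoplasmic reticulum branch: XBP1 mRNA is spliced by the IRE1 nuclease into its active form, and ATF6 is a membrane protein that is released by proteolysis, so neither switch is read by RPF or mRNA amounts.

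The response to a knockdown is the change on DOX in that line minus the change on DOX in shCTRL, fitted with limma with the week as a block, and a gene is called at an adjusted p under 0.1. Translation efficiency (TE) is the log2 RPF value minus the log2 total RNA value of the same lysate, so an RPF response is exactly the sum of a total RNA response and a TE response. The 2 tables were normalized and regularized separately, so differences in log2 TE are read and not its zero. The pull towards the mean can also differ between the tables where a gene has fewer reads in 1 of them. The size or sign of a TE response can carry part of that. CEBPG lay above 42.6% of genes in RPFs and 91.5% in total RNA, and ATF5 above 13.7% and 32.3%. How far this reaches was not tested. Both knockdown responses use the same shCTRL libraries and are given side by side. The targeted genes fell, EIF2B1 by 0.67 ± 0.15 in total RNA after shEIF2B1 (adjusted p = 0.0263) and EIF2B4 by 0.49 ± 0.14 after shEIF2B4 (adjusted p = 0.0634), while EIF2B4 RPFs moved by -0.48 ± 0.19 (adjusted p = 0.236). Before induction both targeted genes were below shCTRL in their own line: EIF2B1 differed by -0.29 in total RNA (adjusted p = 0.0289) and -0.45 in RPFs (adjusted p = 1.9e-04), both called. EIF2B4 differed by -0.25 in total RNA (adjusted p = 0.129), not called, and -0.42 in RPFs (adjusted p = 0.0824), called. Of 8 epithelial markers 5 were in both tables (EPCAM, KRT8, KRT18, CDX2 and CDH1), while of 12 markers of leukocytes, endothelium, fibroblasts and hepatocytes only CD14 was listed, in RPFs alone at a mean of 4.54. In bulk libraries such as these, fewer cells with a message and less of it per cell cannot be told apart.

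The leaders of the members, read from GENCODE v29 on GRCh38, differ in whether they hold an AUG upstream of the coding sequence (CDS). ATF4, ATF5, DDIT3, CEBPG and ATF3 have 1 or more, and CEBPB, XBP1 and ATF6 have 0, where 47.4% of 10831 messages of the RPF table with a v29 match hold at least 1. Only AUGs before the annotated CDS start were searched, which for CEBPB opens a CDS of 345 codons. Other frames that begin inside a CDS were not looked for. The v29 copy is an older version of the counted transcript for ATF5, DDIT3, CEBPG, CEBPB and ATF3, the same version for XBP1, and another transcript for ATF4 and ATF6. ATF4 (chromosome 22) and ATF5 (chromosome 19) share a layout in the shortest of 3 v29 leaders of ATF4, none of which is the counted transcript: the last upstream open reading frame (uORF) runs over the CDS start and is 59 codons long, and before it lies a uORF of 3 codons. In that ATF4 leader, 280 nt long, these begin 97 and 196 nt before the CDS, and in the ATF5 leader of 377 nt they begin 124 and 246 nt before it. The ATF4 leader of 773 nt holds the same pair after other uORFs, while that of 882 nt holds the uORF of 3 codons but not the one of 59. The DDIT3 leader of 180 nt (chromosome 12) has uORFs of 34 and 31 codons that share a stop in the leader and another AUG whose frame runs over the CDS start, CEBPG has 3 uORFs that all end in its leader of 662 nt, and ATF3 has 1 uORF, which runs over the CDS start. The short uORF starts of ATF4, ATF5 and DDIT3 and the CDS starts that follow them are shown, with the start codon in capitals; all lie in exons, the first of each pair in the leader.
ATF4 uORF of 3 codons, chr22:39520639-39520659 (plus strand): acggccaccATGgcgtattag
ATF4 CDS, chr22:39521437-39521457 (plus strand): caccgcaacATGaccgaaatg
ATF5 uORF of 3 codons, chr19:49929265-49929285 (plus strand): gccccggccATGgctctgtag
ATF5 CDS, chr19:49930842-49930862 (plus strand): gctacagccATGtcactcctg
DDIT3 uORF of 34 codons, chr12:57520469-57520489 (minus strand): gagcgtatcATGttaaagatg
DDIT3 CDS, chr12:57517395-57517415 (minus strand): actgcagagATGgcagctgag

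The short frames of ATF4 and ATF5 both begin with ATGG, and each ends in TAG within the window shown. The RPF values below count reads on the CDS; ribosomes on the uORFs were not analysed here, and where a uORF overlaps a CDS start the shared bases are part of both.

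Of the 8 members 5 had higher RPFs after eIF2Bα knockdown: ATF5, DDIT3, ATF4, CEBPB and XBP1. The same 5 rose in the shEIF2B4 comparison. Of all 11145 genes in RPFs, 27.3% were called in the first comparison (12.0% higher) and 2.75% in the next (1.88% higher). The median RPF response of the members was 0.84 and 0.72, beside -0.01 and -0.02 over all genes. In total RNA 4 members rose after shEIF2B1 (DDIT3, ATF5, CEBPG and CEBPB) and 5 after shEIF2B4 (those and XBP1), against 3.47% of 11947 genes called (2.34% higher) and 5.40% (3.78% higher). The median total RNA response of the members was 0.40 and 0.52, beside -0.00 and 0.00. In log2 TE 4 members rose after shEIF2B1 (ATF4, DDIT3, ATF5 and CEBPB) and 1 after shEIF2B4 (ATF5), against 7.10% of 10836 genes called (2.97% higher) and 0.0923% (0.0646% higher); the medians were 0.44 and 0.25, beside -0.02 and -0.01. No member was called lower in any of these.

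**Figure D1:**
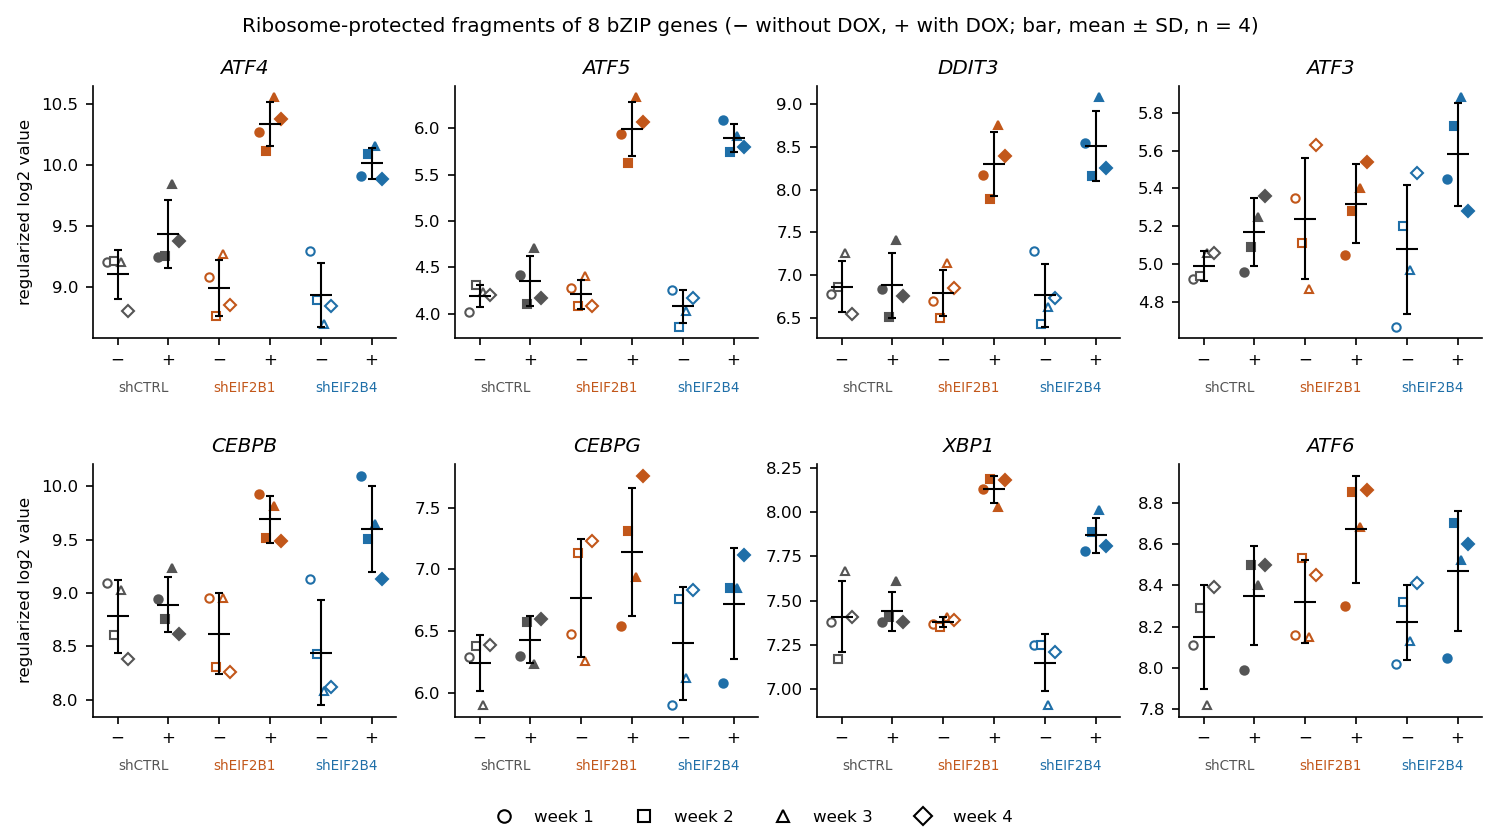
RPF values (regularized log2) of the 8 members in the 6 groups, 1 point per week (open, -DOX; filled, +DOX), with the mean ± SD of 4 replicates. In ATF4, ATF5, DDIT3 and XBP1 the +DOX points of both knockdown lines lie above all 16 other points, while ATF3, CEBPG and ATF6 overlap. How many of all genes are separated in this way was not counted.

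ATF4, the factor that the integrated stress response (ISR) works through, rose in RPFs after both knockdowns, and its total RNA was not called. In weeks 1 to 4 its RPF values in shEIF2B1 were 9.08, 8.76, 9.27 and 8.85 without DOX and 10.27, 10.11, 10.55 and 10.37 with DOX. In shEIF2B4 they were 9.29, 8.89, 8.69 and 8.84 without and 9.91, 10.09, 10.15 and 9.88 with DOX. In shCTRL they were 9.20, 9.21, 9.20 and 8.80 without and 9.24, 9.25, 9.84 and 9.37 with DOX. All 8 induced knockdown libraries lay above the other 16, the nearest of which was the shCTRL library on DOX in week 3. Such separations are given as a description of the members, and their share among all genes was not counted. The RPF response was 1.02 ± 0.15 (SE, adjusted p = 2.2e-04) after shEIF2B1, a 2.02-fold rise, and 0.76 ± 0.20 (SE, adjusted p = 0.069) after shEIF2B4, or 1.69-fold.

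The total RNA values of ATF4 were 12.10, 12.10, 12.25 and 12.10 without and 12.31, 12.54, 12.30 and 12.24 with DOX in shEIF2B1. In shEIF2B4 the same values were 12.21, 12.04, 12.13 and 12.13 without and 12.29, 12.29, 12.23 and 12.16 with DOX, and in shCTRL 12.20, 12.09, 12.15 and 12.03 without and 12.09, 12.12, 12.25 and 12.11 with DOX. Induced and uninduced values overlapped in both knockdown lines. The total RNA response was 0.19 ± 0.11 (SE, adjusted p = 0.451) after shEIF2B1 and 0.09 ± 0.09 (SE, adjusted p = 0.678) after shEIF2B4, with 95% intervals of -0.05 to 0.42 and -0.11 to 0.28. Log2 TE moved by 0.83 ± 0.19 (SE, adjusted p = 0.0323) and 0.67 ± 0.20 (SE, adjusted p = 0.159), so that total RNA made up 18.2% and 11.6% of the RPF response. Week by week the TE response was 0.83, 0.90, 0.69 and 0.90 with shEIF2B1, and it was 0.38, 0.95, 0.82 and 0.53 with shEIF2B4, above 0 in each of 4 weeks. The RPF call of ATF4 after shEIF2B4 was lost without week 2, 3 or 4 (adjusted p = 0.39, 0.194 and 0.348) and without the week as a block (adjusted p = 0.538).

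ATF5, whose protein acts in mitochondrial and proteotoxic stress, had the largest RPF response of the members after shEIF2B1 and the next to largest after shEIF2B4, and both mRNA and TE rose. Its RPF values in shEIF2B1 were 4.28, 4.08, 4.41 and 4.08 without DOX and 5.94, 5.62, 6.33 and 6.07 with it. The shEIF2B4 line gave 4.26, 3.86, 4.03 and 4.17 without and 6.09, 5.74, 5.92 and 5.80 with DOX, and shCTRL 4.02, 4.31, 4.24 and 4.20 without and 4.42, 4.11, 4.71 and 4.17 with DOX. The induced knockdown libraries stood apart from every other library by more than the spread within groups. ATF5 RPFs rose by 1.62 ± 0.17 (SE, adjusted p = 7.5e-06), 3.07-fold, after shEIF2B1 and 1.65 ± 0.19 (SE, adjusted p = 5.3e-05), 3.13-fold, after shEIF2B4.

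Total RNA of ATF5 went from 6.55, 6.73, 6.88 and 6.58 to 7.09, 7.67, 7.60 and 7.33 on DOX in shEIF2B1, with no overlap. In shEIF2B4 it was 6.58, 6.67, 6.95 and 6.73 without and 6.79, 7.01, 6.97 and 7.05 with DOX, which overlap, and in shCTRL 6.67, 6.88, 6.93 and 6.63 without and 6.63, 6.34, 6.72 and 6.41 with DOX, lower on DOX in all 4 weeks. The shCTRL change was -0.26 (adjusted p = 0.146), and it enters the total RNA responses of 0.99 ± 0.14 (SE, adjusted p = 2.6e-04) and 0.48 ± 0.13 (SE, adjusted p = 0.0431). Log2 TE rose by 0.62 ± 0.20 (SE, adjusted p = 0.081) after shEIF2B1 and by 1.17 ± 0.19 (SE, adjusted p = 0.0256) after shEIF2B4, where the weekly responses of 1.16, 1.21, 1.18 and 1.12 lay close together. Total RNA made up 61.4% of the RPF response after shEIF2B1 and 29.2% after shEIF2B4; the test of that contrast is given with the comparison of the knockdowns. ATF5 lies low in the RPF table, above 13.7% of genes, so its RPF and TE responses are the ones most open to shrinkage. The total RNA call of ATF5 after shEIF2B4 was lost without week 2 or 4 (adjusted p = 0.299 and 0.199) and without the week as a block (adjusted p = 0.104). Its gene span overlaps IL4I1, NUP62 and AC011452.1 on the other strand, and whether the counting kept strands apart is not given in the sources used here. Overlap of their exons was not examined.

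DDIT3 encodes CHOP, which is linked to cell death under lasting stress and is itself a transcriptional target of ATF4. Its RPF values were 6.69, 6.49, 7.14 and 6.85 without and 8.17, 7.89, 8.76 and 8.39 with DOX in shEIF2B1. They were 7.28, 6.42, 6.62 and 6.73 without and 8.55, 8.16, 9.08 and 8.25 with DOX in shEIF2B4, and 6.77, 6.86, 7.26 and 6.54 without and 6.83, 6.51, 7.41 and 6.75 with DOX in shCTRL. Every induced knockdown library exceeded every other library. In RPFs DDIT3 rose by 1.49 ± 0.16 (SE, adjusted p = 6.1e-06), 2.81-fold, after shEIF2B1 and 1.73 ± 0.23 (SE, adjusted p = 4.0e-04), 3.31-fold, after shEIF2B4, the largest of the members there.

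Most of the DDIT3 response was in mRNA. Total RNA in shEIF2B1 was 9.35, 9.43, 9.62 and 9.52 without DOX and 10.13, 10.41, 10.41 and 10.36 with DOX. In shEIF2B4 the values were 9.34, 9.34, 9.41 and 9.49 without and 10.30, 10.50, 10.67 and 10.51 with DOX, and in shCTRL 9.37, 9.53, 9.57 and 9.53 without and 9.40, 9.25, 9.59 and 9.53 with DOX. Again the 8 induced knockdown libraries lay above the rest. The total RNA response was 0.91 ± 0.10 (SE, adjusted p = 4.2e-05) and 1.16 ± 0.10 (SE, adjusted p = 9.0e-07), or 60.9% and 67% of the RPF response. The remainder, in log2 TE, was 0.58 ± 0.18 (SE, adjusted p = 0.0741) after shEIF2B1 and 0.57 ± 0.21 (SE, adjusted p = 0.216) after shEIF2B4, above 0 in each week of both, but called only after shEIF2B1. The DDIT3 gene span overlaps MARS and MBD6 on the other strand and AC022506.1 on its own. Whether exons of the counted transcripts overlap, and so whether reads could be shared, was not examined.

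ATF3, an early target gene of many stresses, was called in no measure after either knockdown. In shEIF2B1 its RPF values were 5.35, 5.11, 4.87 and 5.63 without and 5.05, 5.28, 5.40 and 5.54 with DOX, and in shEIF2B4 4.67, 5.20, 4.97 and 5.48 without and 5.45, 5.73, 5.88 and 5.28 with DOX. In shCTRL they were 4.92, 4.94, 5.06 and 5.06 without and 4.96, 5.09, 5.25 and 5.36 with DOX. Values with and without DOX overlapped in all 3 lines. The RPF response was -0.10 ± 0.17 (SE, adjusted p = 0.726) and 0.33 ± 0.20 (SE, adjusted p = 0.446), with 95% intervals of -0.46 to 0.27 and -0.10 to 0.76. Its total RNA response was 0.25 ± 0.18 (SE, adjusted p = 0.558) and 0.43 ± 0.19 (SE, adjusted p = 0.243), and log2 TE moved by -0.35 ± 0.25 (SE, adjusted p = 0.452) and -0.10 ± 0.22 (SE, adjusted p = 0.827). ATF3 lies above 19.6% of genes in RPFs, and its weekly TE responses spanned -0.92 to 0.61 after shEIF2B1, so a response like that of DDIT3 lay outside the interval but a smaller one was not detectable.

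CEBPB, a C/EBP factor that pairs with ATF4 and with CHOP, rose in RPFs and in mRNA after both knockdowns. RPF values in shEIF2B1 were 8.95, 8.31, 8.95 and 8.26 without and 9.93, 9.52, 9.82 and 9.49 with DOX. In shEIF2B4 they were 9.13, 8.43, 8.08 and 8.12 without and 10.10, 9.51, 9.65 and 9.13 with DOX, and in shCTRL 9.09, 8.61, 9.03 and 8.38 without and 8.94, 8.76, 9.23 and 8.62 with DOX. The shEIF2B1 groups did not overlap, while in shEIF2B4 the week 4 library on DOX and the week 1 library without DOX had the same value to 2 decimals, though RPFs were higher on DOX within each week. CEBPB RPFs rose by 0.97 ± 0.13 (SE, adjusted p = 7.8e-05) and 1.05 ± 0.21 (SE, adjusted p = 0.0139). In total RNA the change on DOX was from 8.85, 8.75, 8.83 and 8.77 to 9.11, 9.16, 9.63 and 9.57 in shEIF2B1, and from 9.05, 8.91, 8.49 and 8.62 to 9.57, 9.53, 9.58 and 9.44 in shEIF2B4. Neither pair of groups overlapped, and the shCTRL values, 8.89, 8.77, 8.91 and 8.67 without and 8.87, 8.78, 8.97 and 8.95 with DOX, were below both induced groups. The total RNA response of 0.48 ± 0.13 (SE, adjusted p = 0.069) and 0.68 ± 0.13 (SE, adjusted p = 0.00658) was 50.1% and 64.4% of the RPF response. Log2 TE moved by 0.48 ± 0.16 (SE, adjusted p = 0.0995), just inside the threshold, and by 0.37 ± 0.16 (SE, adjusted p = 0.259). The RPF call of CEBPB after shEIF2B1 was lost without the week as a block (adjusted p = 0.404), and that after shEIF2B4 was lost without week 2 or 4 (adjusted p = 0.118 and 0.163) and without the week as a block (adjusted p = 0.716). In total RNA the call after shEIF2B1 was lost without week 1, 3 or 4 (adjusted p = 0.144, 0.262 and 0.258) and without the week as a block (adjusted p = 0.144), while that after shEIF2B4 held in these alternatives.

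CEBPG, a small C/EBP protein that forms heterodimers with ATF4 on amino acid response genes, rose in mRNA and was not called in RPFs. Its total RNA was 10.45, 10.41, 10.34 and 10.22 without and 11.16, 10.83, 11.27 and 11.19 with DOX in shEIF2B1. It was 10.47, 10.32, 9.98 and 10.19 without and 11.17, 11.12, 11.11 and 11.07 with DOX in shEIF2B4, and 10.43, 10.19, 9.99 and 10.03 without and 10.36, 10.13, 10.34 and 10.37 with DOX in shCTRL. Total RNA in the induced knockdown libraries was above that in all 16 others, a response of 0.62 ± 0.14 (SE, adjusted p = 0.0219) and 0.74 ± 0.12 (SE, adjusted p = 0.00127). In RPFs the values in shEIF2B1 were 6.48, 7.13, 6.26 and 7.23 without and 6.54, 7.31, 6.94 and 7.76 with DOX, and in shEIF2B4 5.90, 6.76, 6.12 and 6.83 without and 6.08, 6.85, 6.85 and 7.12 with DOX. With shCTRL at 6.29, 6.38, 5.90 and 6.39 without and 6.30, 6.57, 6.23 and 6.60 with DOX, all these groups overlapped. The RPF response was 0.18 ± 0.20 (SE, adjusted p = 0.539) and 0.13 ± 0.21 (SE, adjusted p = 0.797), with 95% intervals of -0.22 to 0.59 and -0.32 to 0.58. The response in log2 TE was below 0 in all 4 weeks of both knockdowns, at -0.73, -0.49, -0.22 and -0.31 with shEIF2B1 and, in the same order, -0.60, -0.97, -0.37 and -0.47 with shEIF2B4. The TE response itself was not called, at -0.44 ± 0.21 (SE, adjusted p = 0.241) and -0.60 ± 0.22 (SE, adjusted p = 0.208). Mean log2 TE in shEIF2B1 was -3.58 without and -3.97 with DOX, beside -3.92 and -3.87 in shCTRL. Mean RPFs in shEIF2B1 were 6.77 and 7.14, beside 6.24 and 6.43 in shCTRL. The shEIF2B1 line thus began above shCTRL in RPFs and TE, and that start enters its responses. In shEIF2B4 mean log2 TE was -3.84 without and -4.39 with DOX. The SD of CEBPG RPFs over weeks was up to 0.52, with weeks 2 and 4 above weeks 1 and 3 in the uninduced lines. The total RNA call of CEBPG after shEIF2B1 was lost without week 1 or 4 (adjusted p = 0.228 and 0.155).

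One promoter window of CEBPG, in RefSeq's table of 300-base windows around each annotated start, holds the letters TGATGCAA, the composite element that C/EBP and ATF proteins bind as pairs. It was the only one of 16 member windows with it on either strand, while 0.866% of 35116 windows hold it. The letters TGACGTGG, the core bound by spliced XBP1 and ATF6, and TGACGTCA, the cAMP response element, were in 0 member windows and in 0.729% and 1.85% of all windows. The TGATGCAA letters also lie at the upstream AUG in the leader of ATF3, whose mRNA was not called after either knockdown. DDIT3, ATF5 and CEBPB, whose mRNA rose after both, had none in their windows. A part of the CEBPG site in the rise of its mRNA was not tested. The CEBPG site is shown with the matched letters in capitals. It begins 42 bases before that annotated start and lies in an intron of the counted transcript.
CEBPG promoter, GRCh38 chr19:33374060-33374089 (plus strand): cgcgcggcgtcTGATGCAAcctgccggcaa

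**Figure D2:**
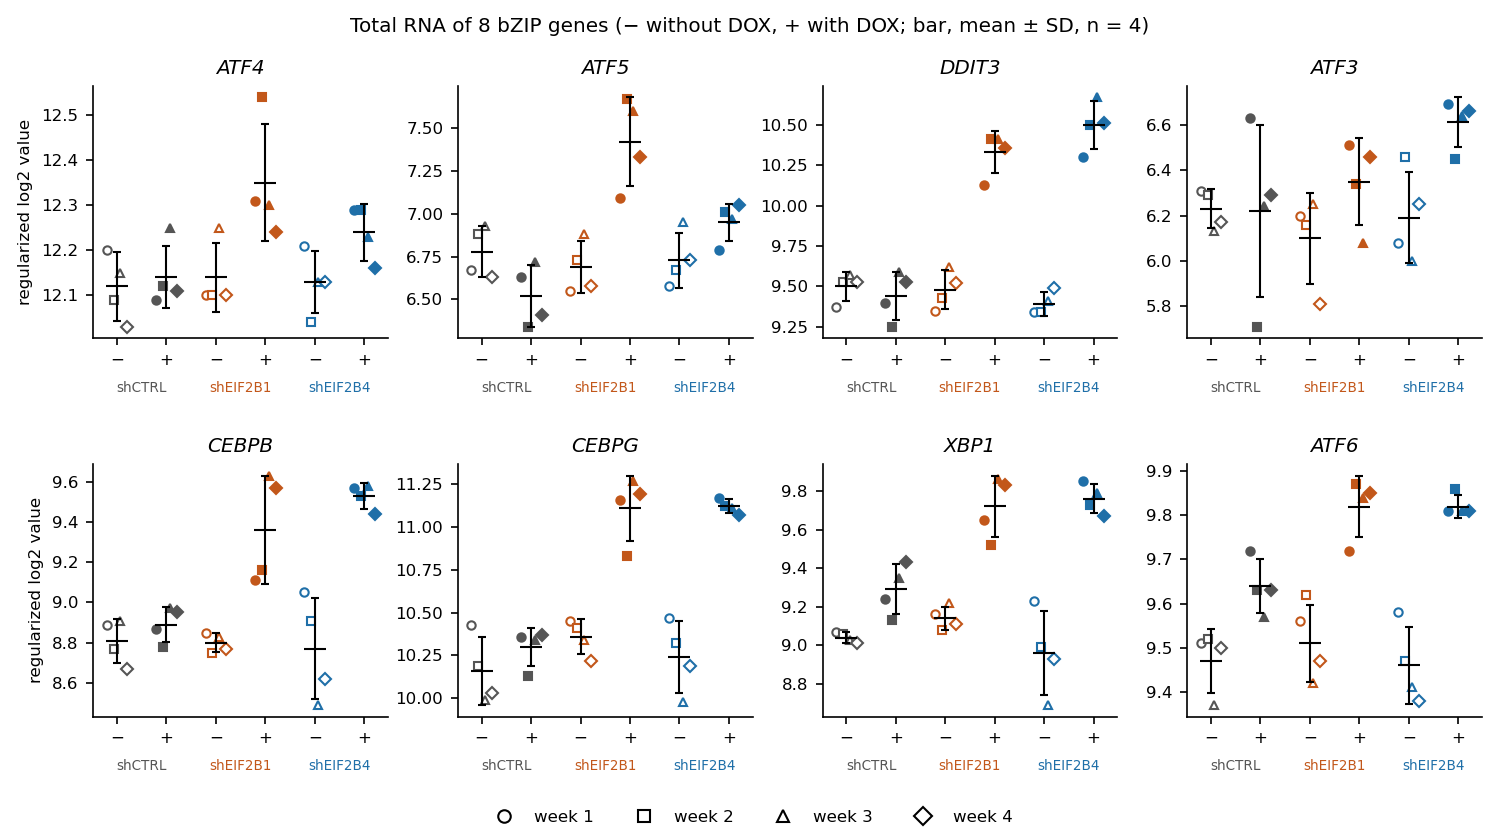
Total RNA values (regularized log2) of the 8 members in the 6 groups, 1 point per week (open, -DOX; filled, +DOX), with the mean ± SD of 4 replicates. In DDIT3, CEBPB, CEBPG and XBP1 the +DOX points of both knockdown lines lie above all 16 other points, while the ATF4 groups overlap. How many of all genes are separated in this way was not counted.

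XBP1, counted on the transcript with a CDS of 261 codons, the length of the unspliced form, rose in RPFs after both knockdowns. The RPF values in shEIF2B1 were 7.37, 7.35, 7.41 and 7.39 without DOX and 8.13, 8.19, 8.03 and 8.18 with DOX. For shEIF2B4 they were 7.25, 7.25, 6.91 and 7.21 without and 7.78, 7.89, 8.01 and 7.81 with DOX, and for shCTRL 7.38, 7.17, 7.67 and 7.41 without and 7.38, 7.41, 7.61 and 7.38 with DOX. The induced groups exceeded all 16 other libraries. This gave an RPF response of 0.71 ± 0.14 (SE, adjusted p = 0.00236) and 0.68 ± 0.17 (SE, adjusted p = 0.0533). In total RNA shEIF2B1 gave 9.16, 9.08, 9.22 and 9.11 without and 9.65, 9.52, 9.86 and 9.83 with DOX, and shEIF2B4 gave 9.23, 8.99, 8.69 and 8.93 without and 9.85, 9.73, 9.79 and 9.67 with DOX. Total RNA was also higher on DOX in shCTRL, from 9.07, 9.06, 9.03 and 9.01 to 9.24, 9.13, 9.35 and 9.43, with no overlap between those groups (change 0.25, adjusted p = 0.11). Relative to that, the total RNA response was 0.32 ± 0.11 (SE, adjusted p = 0.144), not called, and 0.55 ± 0.13 (SE, adjusted p = 0.0199), called. Log2 TE moved by 0.39 ± 0.18 (SE, adjusted p = 0.233) and 0.13 ± 0.17 (SE, adjusted p = 0.69), called in neither. The RPF call of XBP1 after shEIF2B4 was lost without week 2, 3 or 4 (adjusted p = 0.158, 0.334 and 0.376) and without the week as a block (adjusted p = 0.309), and its total RNA call there without week 2 (adjusted p = 0.141).

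ATF6, the membrane-bound sensor, was called in no measure after either knockdown. In RPFs the means ± SD were 8.32 ± 0.20 without and 8.67 ± 0.26 with DOX in shEIF2B1 (n = 4), 8.22 ± 0.18 and 8.47 ± 0.29 in shEIF2B4, and 8.15 ± 0.25 and 8.35 ± 0.24 in shCTRL. Its RPFs were higher on DOX in all 4 weeks of both knockdown lines and in 3 of 4 in shCTRL, and the groups overlapped. The response was 0.16 ± 0.14 (SE, adjusted p = 0.463) and 0.06 ± 0.16 (SE, adjusted p = 0.893) in RPFs, 0.14 ± 0.10 (SE, adjusted p = 0.539) and 0.20 ± 0.09 (SE, adjusted p = 0.235) in total RNA, and 0.02 ± 0.15 (SE, adjusted p = 0.963) and -0.14 ± 0.16 (SE, adjusted p = 0.645) in log2 TE. In total RNA the 4 induced shEIF2B4 libraries lay above all 16 others, by a small margin. The 95% interval of the RPF response after shEIF2B1 reached 0.45 upwards, which is less than the ATF5, DDIT3 and ATF4 responses.

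Set side by side, the members fall along a range in how much of the RPF response was in mRNA. For ATF4 it was 18.2% after shEIF2B1 and 11.6% after shEIF2B4. For DDIT3 it was 60.9% and 67%, and for CEBPB 50.1% and 64.4%. It was 61.4% and 29.2% for ATF5, and 45.4% and 80.9% for XBP1. CEBPG had no called RPF response to divide, and its total RNA and TE responses had opposite signs. These shares carry the errors of both responses and are a description. All 8 members had a total RNA response above 0 after both knockdowns, called or not.

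**Figure D3:**
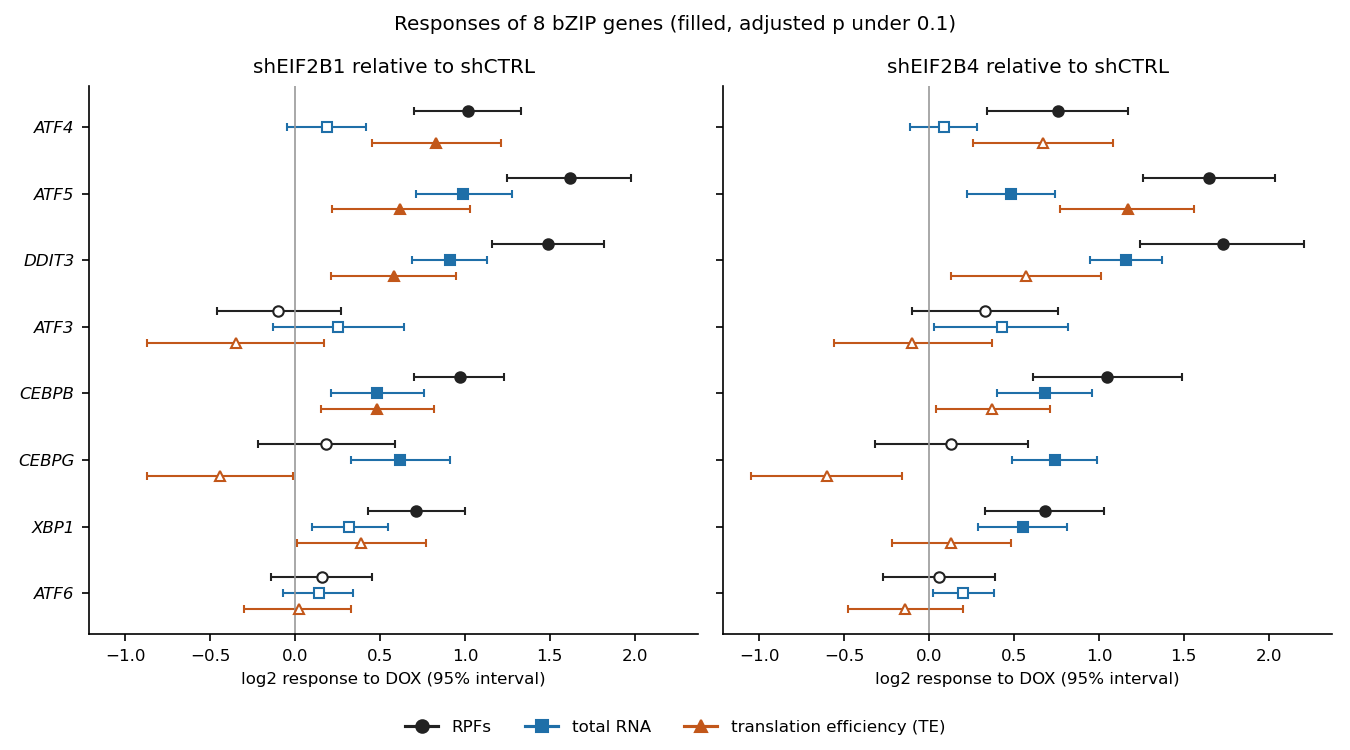
Log2 responses of the 8 members in RPFs (black circles), total RNA (blue squares) and TE (orange triangles) after shEIF2B1 and shEIF2B4, each corrected for shCTRL, with 95% intervals; filled symbols are called. ATF4 has RPF and TE responses with total RNA near 0. CEBPG has a total RNA response with RPFs near 0 and TE below 0, not called. CEBPG RPFs and TE were already above shCTRL in the uninduced shEIF2B1 line.

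**Figure D4:**
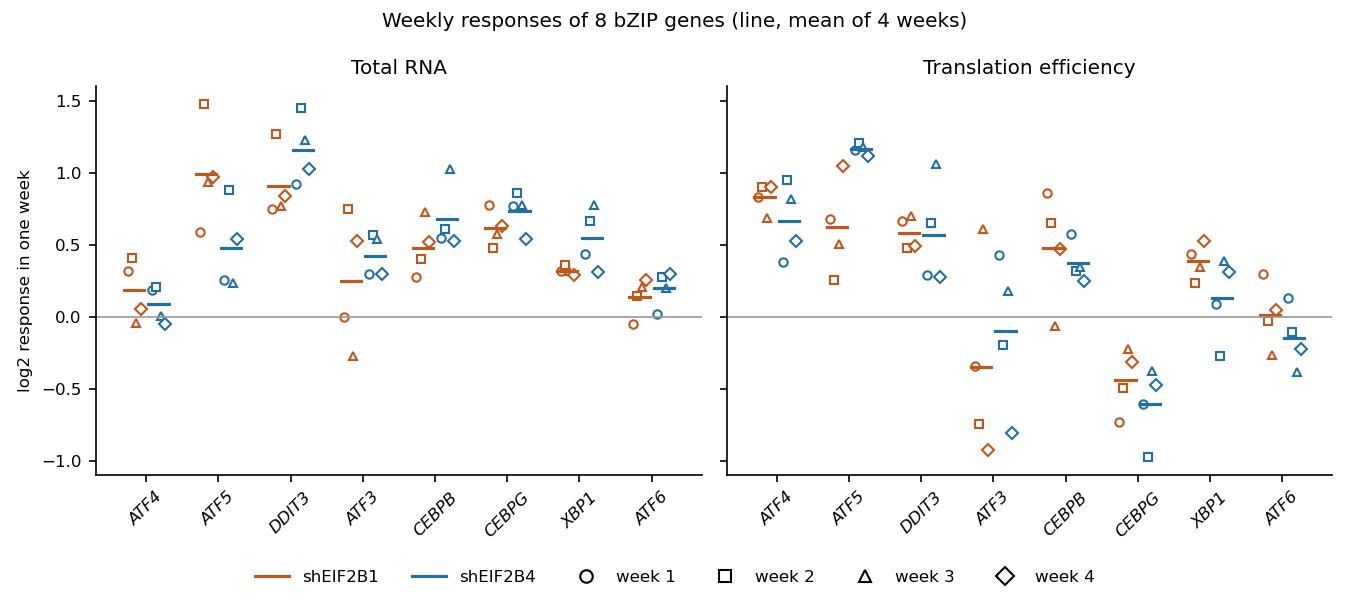
Response of each member in each of 4 weeks, in total RNA and in TE, with the mean as a line (orange, shEIF2B1; blue, shEIF2B4). TE responses of ATF4, ATF5 and DDIT3 are above 0 and those of CEBPG below 0 in every week of both knockdowns, while ATF3 lies on both sides.

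The RPF calls of ATF5 and DDIT3 and the total RNA call of DDIT3 held without any 1 week in both knockdowns, while the TE calls rested on the week as a block and on single weeks. Without the block 0 of 10836 genes were called in TE after either knockdown by limma, members included. Without week 1, 3 or 4 no member was called in TE after shEIF2B1, where ATF4 had adjusted p = 0.189, 0.115 and 0.158, and without week 2 ATF4, ATF5 and DDIT3 were. Of all genes 0, 43 and 20 were called without week 1, 3 or 4, and 1366 without week 2, against 769 with all weeks. After shEIF2B4 the ATF5 call in TE was lost without week 2, 3 or 4 (adjusted p = 0.26, 0.202 and 0.252). Without week 1 it was kept and ATF4, DDIT3 and CEBPG, the last of these lower, were called as well. Of all 10836 genes 1417 were called there without week 1, 0 without week 2, 3 or 4, and 10 with all weeks. With TE tested as an interaction over both kinds of library, ATF4 was called after shEIF2B1 (adjusted p = 0.0887) and ATF5 after shEIF2B4 (adjusted p = 0.0731).

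The knockdowns were compared by the difference of their responses over all 24 lysates, in which the shCTRL term cancels. By limma, 0 of 8 members were called in RPFs, in total RNA and in log2 TE, where 0.00897%, 0.10% and 0% of all genes were. At an unadjusted p under 0.05 there were 0 members in RPFs, 2 in total RNA and 1 in TE. The largest contrast was ATF5, where shEIF2B1 minus shEIF2B4 was 0.51 ± 0.13 (SE, adjusted p = 0.193) in total RNA and -0.54 ± 0.20 (SE, adjusted p = 0.789) in TE, so that its RPF responses differed by -0.03 with an interval of -0.39 to 0.33. DDIT3 total RNA differed by -0.25 ± 0.09 (SE, adjusted p = 0.315). For ATF4 the difference in RPFs was 0.26, with an interval of -0.12 to 0.64, and for CEBPG in TE 0.17, with an interval of -0.29 to 0.63. That more members were called in TE after shEIF2B1 is not shown to be a difference between the knockdowns.

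DOX itself was tested in shCTRL. No member was called there in RPFs, total RNA or TE, where 9.85%, 4.44% and 0.388% of all genes were; by unadjusted p under 0.05 limma gave 1, 3 and 2 members. The lowest adjusted p was 0.11, for XBP1 total RNA. ATF4 RPFs were 0.32 ± 0.11 (SE, adjusted p = 0.121) on DOX with no overlap between the 2 shCTRL groups, and 0.30 ± 0.12 (SE, adjusted p = 0.252) in TE. ATF5 TE moved by 0.42 ± 0.11 (SE, adjusted p = 0.135) in shCTRL, and the 2 shCTRL groups did not overlap. Uncorrected for shCTRL, the shEIF2B1 line gained 1.34 in ATF4 RPFs and 1.04 in ATF5 TE, and the shEIF2B4 line 1.08 and 1.58. Leaving out week 1 brought ATF4 (0.42, adjusted p = 0.00479) and ATF6 (0.30, adjusted p = 0.0366) past the threshold in shCTRL RPFs, and XBP1 (0.28, adjusted p = 0.0492) and ATF5 (-0.33, adjusted p = 0.0449) in shCTRL total RNA. Calls over all genes rose with it, from 1098 to 3526 of 11145 in RPFs and from 531 to 2452 of 11947 in total RNA.

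The uninduced lines were compared because the targeted genes were lower in their own lines before DOX. In RPFs 54.1% of all genes were called between uninduced shEIF2B1 and uninduced shCTRL, and 3 of 8 members, which is below that share. CEBPG was higher by 0.53 ± 0.11 (SE, adjusted p = 9.3e-04), from 6.24 ± 0.23 in shCTRL to 6.77 ± 0.48 in shEIF2B1 (mean ± SD, n = 4). ATF6 was higher by 0.17 ± 0.08 (SE, adjusted p = 0.0936), and CEBPB lower at -0.16 ± 0.08 (SE, adjusted p = 0.0924), and both calls were lost without week 2, 3 or 4, and that of CEBPB without week 1 too. In log2 TE, where 42.6% of genes were called, ATF3 was higher by 0.37 ± 0.15 (SE, adjusted p = 0.0708) and CEBPG by 0.34 ± 0.14 (SE, adjusted p = 0.0702). In total RNA 0 members were called, with 1 at an unadjusted p under 0.05 in limma, against 1.40% of genes. For uninduced shEIF2B4 0 members were called in RPFs, total RNA or TE (1, 0 and 1 at an unadjusted p under 0.05 in limma), where 13.9%, 2.32% and 0.554% of genes were, and the median RPF difference of all genes was -0.13. Leaving out week 1 called 5 members there in RPFs, with 5305 of 11145 genes: CEBPG higher (0.35, adjusted p = 0.04), and CEBPB lower (-0.47, adjusted p = 0.00698) with ATF4, DDIT3 and XBP1. With all weeks, ATF4, ATF5 and DDIT3 RPFs differed from shCTRL before induction by at most 0.17 in size. Mean RPFs of CEBPB were 8.44 in uninduced shEIF2B4 and 8.78 in uninduced shCTRL, and those of XBP1 7.15 and 7.41. On DOX the same lines were at 9.60 and 8.89 for CEBPB, and at 7.87 and 7.44 for XBP1. The lower starts, not called, are part of the RPF responses of CEBPB and XBP1 after shEIF2B4.

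The other genes of the pathway were taken as lists. Of 23 targets of ATF4 and CHOP 22 were measured in both tables. In RPFs 15 rose and 2 fell (ERO1A, by 0.70 ± 0.15, and VLDLR, by 0.37 ± 0.13) after shEIF2B1, and 11 rose after shEIF2B4, with a median of 0.64 and 0.64. Over all genes 27.3% were called in RPFs (12.0% higher) after shEIF2B1 and 2.75% (1.88% higher) after shEIF2B4. In total RNA 10 and 12 of the list rose, with medians of 0.38 and 0.47, where 2.34% and 3.78% of all genes were called higher. In TE TRIB3 (0.80 ± 0.14) and GDF15 (0.75 ± 0.19) rose after shEIF2B1, and 0 of the list did after shEIF2B4. The shares of all genes called higher in TE were 2.97% and 0.0646%. TRIB3, a pseudokinase that feeds back on CHOP, had an RPF response of 2.00 ± 0.13 (SE, adjusted p = 2.0e-08) and 1.85 ± 0.22 (SE, adjusted p = 1.2e-04). GDF15, a secreted stress hormone, rose in RPFs by 1.56 ± 0.24 and 1.58 ± 0.32, and SESN2, an inhibitor of mTORC1 signalling, by 1.19 ± 0.21 and 1.46 ± 0.22.

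Of 8 other messages known for uORFs that favour translation under limiting eIF2, 2 rose in RPFs after shEIF2B1 and 1 after shEIF2B4. For all genes the shares called in RPFs were 27.3% and 2.75%. In TE 0 of the list were called in either, with medians of 0.27 and 0.12 beside -0.02 and -0.01 over all genes. PPP1R15A (GADD34, which directs dephosphorylation of eIF2α, and which is in the target list too) rose by 1.08 ± 0.13 and 1.41 ± 0.15 in RPFs and by 0.74 ± 0.12 and 0.64 ± 0.16 in total RNA. BBC3 (PUMA, a pro-apoptotic BH3 protein) rose by 0.63 ± 0.19 in RPFs after shEIF2B1 and was at 0.57 ± 0.26 after shEIF2B4, not called. IFRD1, a transcriptional co-regulator, was at -0.33 ± 0.17 and 0.02 ± 0.27 in RPFs, and SLC35A4, a sugar transporter-like protein, at 0.25 ± 0.17 and 0.36 ± 0.23, with neither called.

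Among 20 targets of spliced XBP1 and ATF6, chiefly chaperones and degradation factors of the endoplasmic reticulum, 5 rose and 2 fell in RPFs after shEIF2B1 and 2 rose after shEIF2B4, with medians of 0.17 and 0.16. Over all genes 27.3% were called in RPFs after shEIF2B1 (12.0% higher) and 2.75% after shEIF2B4 (1.88% higher). Whether the list goes beyond these shares was not tested. HERPUD1, a degradation factor that ATF4 also induces, rose by 0.98 ± 0.12 and 0.82 ± 0.19, and HYOU1, a chaperone, by 0.57 ± 0.12 and 0.57 ± 0.15. SYVN1, a ubiquitin ligase of that compartment, rose by 0.50 ± 0.12 after shEIF2B1 and was at 0.25 ± 0.18 after shEIF2B4, not called. HSP90B1 (GRP94, a chaperone) fell after shEIF2B1 in RPFs by 0.49 ± 0.15 and in TE by 0.59 ± 0.15, with total RNA at 0.10 ± 0.13. It was at -0.50 ± 0.18 in RPFs after shEIF2B4, not called. MANF, a secreted protein of the same compartment, fell in RPFs by 0.28 ± 0.12 after shEIF2B1, just inside the threshold (limma, adjusted p = 0.0997). It was at -0.06 ± 0.16 after shEIF2B4, not called. In total RNA 2 rose after shEIF2B1 and 6 after shEIF2B4, against 3.47% and 5.40% of all genes called. Of 10 sensors, proteases and partners, ERN1 (IRE1) rose by 0.63 ± 0.17 in RPFs after shEIF2B1, while EIF2AK2 (PKR) and EIF2S1 (eIF2α) fell by 0.67 ± 0.19 and 0.88 ± 0.17 in RPFs and by 0.81 ± 0.20 and 0.61 ± 0.17 in TE. These RPF calls among 10 genes are near the 27.3% of all genes called there, and 7.10% were called in TE. After shEIF2B4 ERN1 was at 0.38 ± 0.19 in RPFs, EIF2AK1 (HRI, an eIF2α kinase) at -0.47 ± 0.14 and MBTPS2, a protease that cuts ATF6, at -0.38 ± 0.14, none of them called. In this list 0 were called in total RNA in either comparison.

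Of 45 other bZIP genes 34 were measured, and in RPFs 10 rose and 1 (DBP) fell after shEIF2B1, while JUNB rose and NFE2L3 fell (by 0.58 ± 0.14) after shEIF2B4. Among all genes 27.3% were called in RPFs after shEIF2B1, which is near the share in this list, and 2.75% after shEIF2B4. The median RPF responses of these 34 were 0.13 and 0.10, against 0.84 and 0.72 for the stress members. In total RNA 0 of the list were called after shEIF2B1 and 2 fell after shEIF2B4 (NFE2L3 and DBP), against 3.47% and 5.40% of all genes called. The genes of this list that rose in TE after shEIF2B1 were CEBPD (0.64 ± 0.16), MAFK (0.66 ± 0.14), JUNB (0.65 ± 0.21) and FOS (0.57 ± 0.18), and 0 did after shEIF2B4. Over all genes 7.10% were called in TE after shEIF2B1 (2.97% higher). CEBPD and FOS were not called in RPFs there, at 0.28 ± 0.12 and 0.46 ± 0.24. CEBPD total RNA was at -0.36 ± 0.12, not called, and is part of its TE response. JUNB, a subunit of AP-1, rose in RPFs by 0.69 ± 0.22 and 0.94 ± 0.22 with total RNA at 0.04 ± 0.13 and 0.07 ± 0.11. ATF6B, the paralogue of ATF6, rose by 0.71 ± 0.13 in RPFs after shEIF2B1 and was at 0.37 ± 0.18 after shEIF2B4, not called. MAFK, a small Maf protein, rose by 0.67 ± 0.14 and was at 0.65 ± 0.19, and NFE2L1, which drives proteasome genes, rose by 0.53 ± 0.11 and was at 0.37 ± 0.14, both not called after shEIF2B4.

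The genes whose RPF profile over the 6 group means was most like each member were found by the Euclidean distance between profiles centred on their own mean, in log2 units. Nearest to ATF4 were HERPUD1 at 0.12 and SLC9A3 at 0.15, and to ATF5 BEX1 at 0.23 and BEX2 at 0.27. DDIT3 was nearest to MOCOS at 0.24 and then to ATF5 at 0.31. CEBPB had SCN4A at 0.12 and GTPBP2 at 0.15, XBP1 had SHMT2 at 0.17 and ECI1 at 0.17, and CEBPG had COG5 at 0.18 and IFIH1 at 0.22. ATF3 had MAPK6 at 0.11 and CLIC4 at 0.14, and ATF6 had COMMD1 at 0.08 and TMEM168 at 0.08. These distances are a description over 6 points.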

How the data were processed

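RPFs and total cytoplasmic RNA were measured in 24 lysates of SW480 cells. The authors trimmed reads with cutadapt 1.18, aligned them with Bowtie2 to GENCODE v38 protein-coding transcripts, counted RPFs of 28 to 33 nt on the CDS, quantified total RNA with RSEM, and deposited regularized log2 values from DESeq2 made separately for RPFs and total RNA, with 1 transcript per gene. Replicate 3 was joined from 2 sequencing runs of its libraries. No counts are in the files used, so depth is unknown, and regularization draws genes with few reads together. Responses were fitted with limma 3.58.1 (R 4.3.3) with the shRNA-by-DOX term, week as a block and a mean-variance trend, over the 16 lysates of a knockdown line and shCTRL, and p-values were two-sided and adjusted by Benjamini-Hochberg over all genes. The steps were tested on simulated data. Pairing by week follows from the labels and the methods: residuals of same-week lysates correlated above 0.1 in 52 of 60 pairs in RPFs, 37 in total RNA and 55 in log2 TE. Named genes were the members, the targeted genes, the 3 genes of each list with the smallest p for the RPF response to each knockdown, any list gene called in log2 TE, and the 2 nearest profiles; ERO1A, VLDLR, MANF and DBP were named after their values were seen. The members and lists were chosen with earlier results of these data known. Alternatives were no block, no trend, the lowest 25% of genes left out, libraries centred on their medians, an adjusted p under 0.05, single weeks left out, all 24 lysates in 1 fit, no shCTRL correction, and TE as an interaction.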

Additional observations from a re-analysis of the deposited data

Results flagged for a closer look

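Of 96 groups of 4 replicates (8 genes, RPFs and total RNA, 6 groups), 7 had 1 library far from the other 3 relative to the range of the group, where chance gives about 1 in 20. In RPFs, ATF4 in uninduced shCTRL was 8.80 in week 4, below 9.20 to 9.21 in the others. XBP1 RPFs in shCTRL on DOX were 7.61 in week 3, above 7.38 to 7.41, and in uninduced shEIF2B4 6.91 in week 3, below 7.21 to 7.25. In total RNA, ATF4 in uninduced shEIF2B1 was 12.25 in week 3, above 12.10 in the others. CEBPG total RNA in shCTRL on DOX was 10.13 in week 2, below 10.34 to 10.37. ATF6 total RNA was 9.37 in uninduced shCTRL in week 3, below 9.50 to 9.52, and 9.86 in shEIF2B4 on DOX in week 2, above 9.81 in the others. Week 3 was the library named in 4 of the 7, and its sequencing was joined from 2 runs; the part of that in these values was not tested.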

How the results depend on the processing

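Of 534 alternatives run on 48 single-gene responses, 456 kept direction and side of the threshold, 57 lost a call, 15 gained one and 6 changed sign, and with library medians centred all 48 kept both. The sign changes were in responses that were not called: ATF3 in RPFs after shEIF2B1 was 0.00 without week 4 (range without 1 week -0.24 to 0.00) and 0.08 without the shCTRL correction. ATF6 in TE after shEIF2B1 was -0.08 without week 1 (range -0.08 to 0.11). After shEIF2B4, ATF3 in TE was 0.14 without week 4 (range -0.27 to 0.14) and 0.09 without the shCTRL correction, which put XBP1 in TE at -0.08.

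Without the week as a block, the number of members called fell from 5 to 2 in RPFs after shEIF2B4, from 4 to 0 and from 1 to 0 in TE after shEIF2B1 and shEIF2B4, and from 3 and 2 to 0 in RPFs and TE of uninduced shEIF2B1; the block changed no other count of members called by over 1.5 times. At an adjusted p under 0.05 the members called were 1 in TE after shEIF2B1, 3 in RPFs after shEIF2B4, and 1 and 0 in RPFs and TE of uninduced shEIF2B1. TE after shEIF2B1 gave 1 with all 24 lysates in the fit and 1 as an interaction, where 44 and 18 of 10836 genes were called. Leaving out the lowest 25% of genes gave 0 in TE after shEIF2B4, since ATF5 was itself left out, and 1 in TE of uninduced shEIF2B1. Without the shCTRL correction 5 were called in TE after shEIF2B4, with 673 of 10836 genes called against 10 in the main fit.

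Leaving out single weeks gave 2 to 4 members in total RNA and 0 to 3 in TE after shEIF2B1, and 2 to 5 in RPFs, 3 to 5 in total RNA and 0 to 4 in TE after shEIF2B4. The range was 0 to 2 for DOX in shCTRL in RPFs and again 0 to 2 in total RNA. It was 1 to 2 in RPFs and 0 to 2 in TE of uninduced shEIF2B1, and 0 to 5 in RPFs and 0 to 1 in TE of uninduced shEIF2B4. The 2 in total RNA after shEIF2B1 came without week 1 or week 4, the 2 in RPFs after shEIF2B4 without week 2 or week 4, the 3 in total RNA after shEIF2B4 without week 2, and the 2, 5 and 1 in shCTRL and uninduced shEIF2B4 without week 1. The cause was not tested. The depth behind the values is unknown, so no limit from counting can be given.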
